A study of Mus musculus with 12 samples.

Results

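The expression of 10 glutathione enzyme genes was examined in whole lung of male A/J mice exposed to an allergen, to urban particles, or to both. They comprised the soluble transferases Gsta3, Gsta4, Gstm1, Gstm2, Gsto1 and Gstt1, the membrane-bound transferase Mgst1, and the peroxidases Gpx1, Gpx2 and Gpx3. These were 10 of 18194 genes with a single symbol in the array annotation, and they were chosen by name. Every probe set annotated to a member and to no other gene was taken, which gave 16 of the 45101 probe sets on the array.

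The 12 arrays, grouped by their titles, made up 4 groups of 3. OVA/PM mice received ovalbumin (OVA, an egg protein used as the allergen of this asthma model) and ambient Baltimore particulate matter (PM). OVA mice received the allergen with phosphate-buffered saline (PBS) in place of the particles. PM mice received the particles with PBS in place of the allergen. Control mice received PBS alone. Per the labels, the mice were 8 to 10 weeks old, OVA was given at 0.4 mg/kg into the peritoneum on day 0 and at 30 mg/kg into the trachea on day 14, and PM as 50 µl of a suspension of 10 mg/ml. Lungs were taken 4 days after PM. Nothing in the labels ties an array to a litter or a processing day.

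Some facts on the arrays bear on all of the results. First, the array labelled Control replicate 1 held transcripts of liver. Alb, which encodes serum albumin, read 13.38 on the log2 scale in that array, against 2.64 to 3.39 in the other 11 arrays, and Apoa1, a plasma apolipoprotein, read 10.42, against 2.32 to 2.47. Glutathione transferases are abundant in liver, so member and list counts against Control are also given without that array. Second, ratios of linear group means matched the table printed for the single exposures in 28 of 28 entries, to 1 decimal, when the names OVA and PM were exchanged, and in 4 of 28 entries as labelled. Both single-exposure groups are therefore named as labels only, and which naming holds was not settled. If the names are exchanged, the values of these groups trade places, while the comparison of OVA/PM with Control and the interaction stay as they are. Last, the spiked hybridization control BioB averaged 6.65 in OVA/PM replicate 3, against 4.45 to 4.68 in the other 11 arrays. The lung label itself was borne out by the club cell secretoglobin Scgb1a1, which read 15.85 to 16.11 in all 12 arrays.

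Glutathione is a small thiol peptide that lung cells keep at high concentration, and the lining fluid of the airways holds it too. Transferases couple it to reactive electrophiles such as lipid aldehydes and quinones, often as the first step towards their export. Peroxidases use it to reduce hydrogen peroxide and lipid hydroperoxides. Many of these genes can be induced through the transcription factor NRF2 (Nfe2l2), which binds antioxidant response elements near its targets.

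Promoter sequences are shown for the 4 members with the largest differences between OVA/PM and Control lungs, since 3 of them were lower and 1 was higher in the same tissue. The 250 bases before an annotated start are printed on the strand of the gene from RefSeq (GRCm38.p6), which listed 9 of the 10 members. Capitals mark matches, on either strand, to the core of the antioxidant response element (TGACNNNGC), the AP-1 site (TGACTCA), the TATA box (TATAAA) and the CCAAT box (CCAAT, read as ATTGG on the opposite strand).
Gsta3 (chr1:21240335-21240584, plus strand): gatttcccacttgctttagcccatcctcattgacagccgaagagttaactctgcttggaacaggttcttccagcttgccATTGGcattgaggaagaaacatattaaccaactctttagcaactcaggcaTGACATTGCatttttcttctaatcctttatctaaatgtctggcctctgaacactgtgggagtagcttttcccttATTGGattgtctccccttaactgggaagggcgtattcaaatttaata
Gstm1 (chr3:108017974-108018223, minus strand): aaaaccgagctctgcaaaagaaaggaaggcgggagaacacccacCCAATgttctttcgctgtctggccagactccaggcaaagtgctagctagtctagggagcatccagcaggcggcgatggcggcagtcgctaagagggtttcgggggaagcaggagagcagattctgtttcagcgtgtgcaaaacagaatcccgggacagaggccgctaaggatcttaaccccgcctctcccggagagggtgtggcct
Gstm2 (chr3:107986421-107986670, minus strand): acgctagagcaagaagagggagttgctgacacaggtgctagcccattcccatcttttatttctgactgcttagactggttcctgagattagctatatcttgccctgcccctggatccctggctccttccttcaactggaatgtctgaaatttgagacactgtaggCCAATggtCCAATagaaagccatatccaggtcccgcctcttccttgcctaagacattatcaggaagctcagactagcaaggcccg
Gsto1 (chr19:47854723-47854972, plus strand): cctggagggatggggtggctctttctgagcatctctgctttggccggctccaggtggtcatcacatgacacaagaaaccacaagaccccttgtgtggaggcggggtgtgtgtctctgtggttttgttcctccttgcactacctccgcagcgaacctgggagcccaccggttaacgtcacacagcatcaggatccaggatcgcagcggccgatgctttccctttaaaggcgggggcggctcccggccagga

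The Gsta3 window held the antioxidant response core as TGACATTGC, beginning at position -121 from the start that the window precedes, together with 2 CCAAT boxes. The core was present in 10.2% of all 32851 promoter windows of this length and in 2 of the 11 windows listed for members (Gstm1 and Mgst1 have 2 windows each), the second being Mgst1. The Gstm2 window held 2 CCAAT boxes close together, and the Gstm1 window printed held 1. The window of the other Gstm1 start, which overlaps the printed one and is not shown, held 2 CCAAT boxes and a TATA box. CCAAT was found in 33.8% of all windows and in 7 of the 11 member windows. The Gsto1 window held none of the 4 motifs, and neither did the Gpx1 window or 1 of the 2 Mgst1 windows. AP-1 (4.46% of all windows) occurred in none of the member windows and TATAAA (12.4%) in 1, that second Gstm1 window. Gstm1 (chr3:108012250-108017973) and Gstm2 (chr3:107981702-107986420) lie near each other on chromosome 3, Gsta3 is at chr1:21240565-21265575 and Gsto1 at chr19:47854973-47864790. The Gsta3 window ends at 21240584, inside these gene bounds, so the start it precedes is not the first base of the gene. These matches describe letters in a window and were not tested for binding.

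In OVA/PM against Control lungs, Gsta3, Gstm1, Gstm2 and Gpx3 fell and Gsto1 rose. By probe set, 9 of the 14 member probe sets tested passed an adjusted p of 0.05 (7 lower and 2 higher), while 21.7% of all 22538 probe sets tested did. Tests were run on probe sets that reached 4.93, the median of all log2 intensities, in every array of either group, and p-values are from limma with Benjamini-Hochberg adjustment over all probe sets tested. Untested were 1 probe set of Gstm1 and 1 of Mgst1, which read 2.10 to 2.32 in all 12 arrays. The median log2 difference of the 10 genes, each at its brightest probe set, was -0.27, against -0.03 over all probe sets tested. Without Control replicate 1, 7 of the 14 probe sets passed, while 2870 of all 22602 tested did. The calls lost were those of Gpx3 and of the dimmer Gsta3 probe set. As the lung was measured in bulk, fewer cells of a type and less RNA per cell cannot be told apart.

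**Figure D1:**
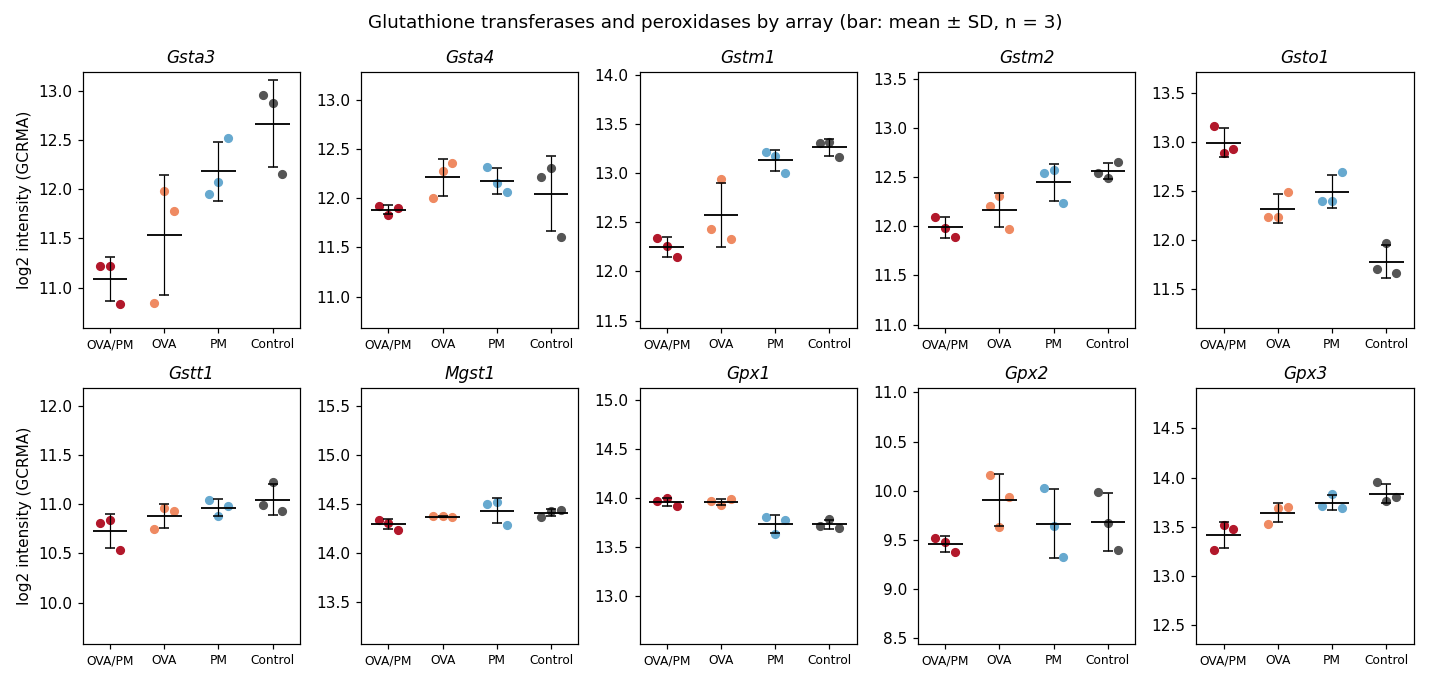
Log2 intensity (GCRMA) of the 10 genes at their brightest probe set in each array, with the groups OVA/PM, OVA, PM and Control from left to right; points are arrays, and bars show the mean ± SD of 3 arrays. Every vertical axis spans the same number of log2 units. The OVA/PM arrays lay below all Control arrays for Gsta3, Gstm1, Gstm2, Gstt1, Mgst1 and Gpx3 and above all of them for Gsto1 and Gpx1. Of these, Gstt1, Mgst1 and Gpx1 did not pass the adjusted p of 0.05.

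Gsta3, an alpha-class transferase that in mouse conjugates the epoxide of aflatoxin, had the widest range of any member, 2.13 log2 units over the 12 arrays. It read 11.22, 11.22 and 10.83 in OVA/PM lungs, 10.85, 11.98 and 11.78 in the arrays labelled OVA, 11.95, 12.08 and 12.52 in arrays labelled PM, and 12.96, 12.88 and 12.16 in Control lungs. The OVA/PM arrays lay below every Control array and every PM array, whereas the arrays labelled OVA spread across the OVA/PM range and the lower end of PM. The difference of OVA/PM from Control was -1.58 (SE 0.24, limma adjusted p = 0.00774), a fall to 0.335 of the Control level. It was -1.43 (SE 0.25, adjusted p = 0.0251) without Control replicate 1, and with any other array left out the call also held. A second, dimmer probe set of Gsta3 gave -1.20 (SE 0.26, adjusted p = 0.0241), and that call held in only 1 of the 6 fits with an array left out. The arrays labelled OVA differed from Control by -1.13 (SE 0.36), with an adjusted p of 0.0714, and those labelled PM by -0.49 (95% confidence interval -1.10 to 0.13).

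Gstm1, a mu-class transferase, fell at all 3 of its tested probe sets. It read 12.34, 12.26 and 12.14 in OVA/PM lungs, 12.44, 12.94 and 12.33 in the arrays labelled OVA, 13.21, 13.17 and 13.01 in arrays labelled PM, and 13.31, 13.32 and 13.16 in Control lungs. All arrays of OVA/PM and of OVA lay below all arrays of PM and of Control, and PM and Control overlapped. OVA/PM differed from Control by -1.01 (SE 0.10, limma adjusted p = 0.00175), which is 0.495 of the Control level, and by -0.99 (SE 0.12, adjusted p = 0.0092) without Control replicate 1. The other tested probe sets of Gstm1 gave -0.97 and -0.88. Their names end in _x_at, a suffix Affymetrix gives to probe sets that may cross-hybridize, so a contribution of related mu-class transcripts to them cannot be told apart.

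Gstm2, the neighbouring mu-class gene, changed less. Its values were 12.09, 11.98 and 11.89 in OVA/PM lungs, 12.21, 12.31 and 11.97 in the arrays labelled OVA, 12.54, 12.57 and 12.23 in arrays labelled PM, and 12.54, 12.49 and 12.65 in Control lungs. No OVA/PM array reached the lowest PM or Control array. The OVA/PM difference from Control was -0.57 (SE 0.10, limma adjusted p = 0.0112), and -0.58 (SE 0.12, adjusted p = 0.0369) without Control replicate 1. In the arrays labelled OVA the difference was -0.40 (SE 0.11, adjusted p = 0.0553).

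Gsto1, an omega-class transferase that reduces dehydroascorbate and methylated arsenic species rather than mainly conjugating, moved in the opposite direction. It read 13.16, 12.89 and 12.93 in OVA/PM lungs, 12.23, 12.23 and 12.49 in the arrays labelled OVA, 12.39, 12.39 and 12.69 in arrays labelled PM, and 11.71, 11.97 and 11.66 in Control lungs. The OVA/PM arrays were above all others, the Control arrays below all others, and both single exposures lay between and overlapped each other. OVA/PM exceeded Control by 1.21 (SE 0.13, limma adjusted p = 0.00235), or 2.32-fold, and by 1.18 (SE 0.15, adjusted p = 0.0113) without Control replicate 1. This brightest probe set of Gsto1 is itself an _x_at probe set. The second Gsto1 probe set, which is not, gave 1.22 (SE 0.12, adjusted p = 0.00176).

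Of the peroxidases, Gpx3 passed in this comparison, and Gpx1 under some other settings. Gpx3, a secreted selenoenzyme, read 13.27, 13.51 and 13.48 in OVA/PM lungs and 13.95, 13.76 and 13.80 in Control lungs, without overlap. The difference was -0.42 (SE 0.11, limma adjusted p = 0.0389), but the call was lost whichever of the 6 arrays was left out, with adjusted p between 0.0551 and 0.114, and also with no filter (adjusted p = 0.051). Gpx1, the ubiquitous cytosolic enzyme, read 13.97, 14.00 and 13.92 in OVA/PM lungs and 13.72, 13.78 and 13.69 in Control lungs. These did not overlap either, yet the difference of 0.23 (95% confidence interval 0.03 to 0.43) had an adjusted p of 0.0937. Gpx1 did pass with no filter (adjusted p = 0.0374), with a filter at the 75th percentile (0.0497), in a fit of all 4 groups (0.0386) and with SAM (0.00879). Gpx2, an epithelial peroxidase that NRF2 is known to induce, ranged from 9.37 to 9.52 in OVA/PM lungs and from 9.40 to 9.98 in Control lungs, a difference of -0.22 (interval -0.61 to 0.16).

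The 3 remaining transferases gave small differences that did not pass with limma. For Gstt1, a theta-class enzyme, the OVA/PM difference from Control was -0.32 (95% confidence interval -0.63 to -0.01, limma adjusted p = 0.129). Gstt1 did pass with SAM (0.0329), where 9603 of all 22538 probe sets tested did. For Gsta4, which conjugates the lipid aldehyde 4-hydroxynonenal, the difference was -0.16 (interval -0.62 to 0.30). For Mgst1, it was -0.12 (interval -0.32 to 0.08), and this gene varied by only 0.28 log2 units over all 12 arrays.

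**Figure D2:**
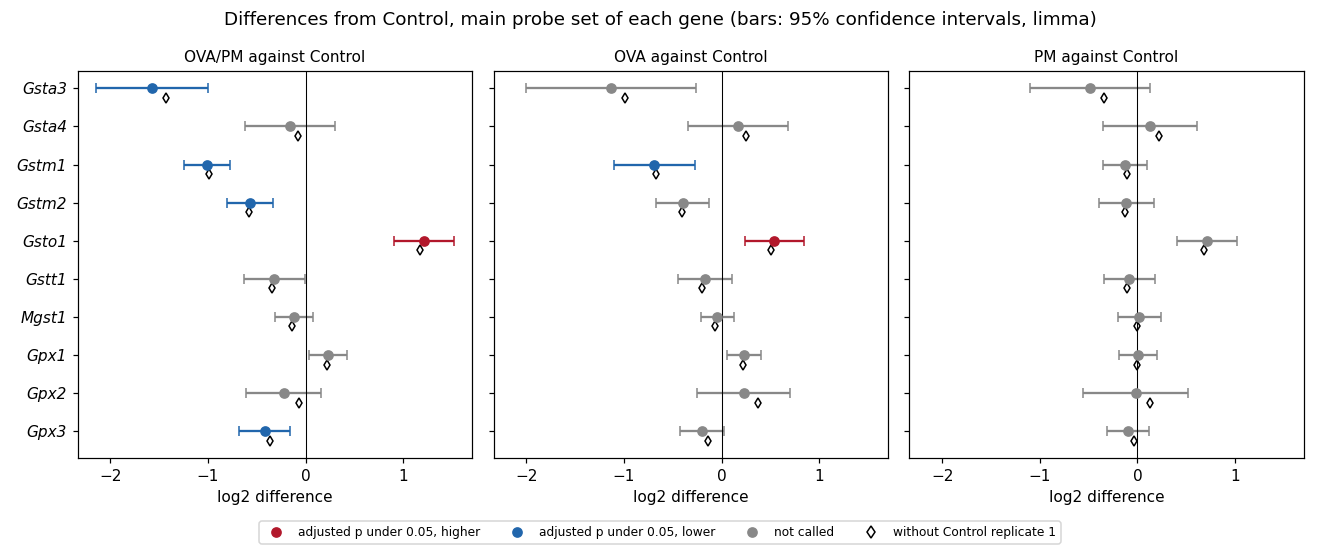
Log2 differences from Control (horizontal axis) of the 10 genes at their brightest probe set, for OVA/PM, OVA and PM from left to right; circles are limma estimates with 95% confidence intervals, coloured where the adjusted p was under 0.05, and open diamonds are the estimates without Control replicate 1. Gsto1 was to the right of 0 in all 3 panels, at 1.21, 0.54 and 0.71, and no gene was called in the PM panel.

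In the arrays labelled OVA, Gstm1 fell and Gsto1 rose relative to Control, the same 3 Control arrays that enter the other comparisons with Control. Of these, 5 of 14 member probe sets passed (3 of Gstm1 lower and 2 of Gsto1 higher), while 19.2% of all 22498 probe sets tested did. Gstm1 differed by -0.69 (SE 0.17, limma adjusted p = 0.0411) and Gsto1 by 0.54 (SE 0.12, adjusted p = 0.0346). At these brightest probe sets, each call was lost in 5 of the 6 fits that left an array out and stood only without OVA replicate 2. The second Gsto1 probe set, at 0.73 (adjusted p = 0.0156), held its call in 4 of the 6 fits. It was lost without OVA replicate 1 or OVA replicate 3. Without Control replicate 1, Gstm1 was at -0.67 (adjusted p = 0.104) and Gsto1 at 0.50 (adjusted p = 0.0931). Then 1 of 14 member probe sets passed, the second probe set of Gsto1, at 0.76 (adjusted p = 0.0461), while 1291 of all 22567 probe sets tested did. Gpx1 was 0.23 higher (SE 0.07, adjusted p = 0.0681), with no overlap between arrays of 13.97, 13.93 and 13.99 under the OVA label and 13.72, 13.78 and 13.69 in Control lungs.

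In the arrays labelled PM, 0 of 14 member probe sets passed against Control, with limma and also with SAM, and 0.0719% of all 22246 probe sets tested did. Only the 2 Gsto1 probe sets had an unadjusted p under 0.05. The difference of Gsto1 was 0.71 (SE 0.13, 95% confidence interval 0.40 to 1.03, adjusted p = 0.243), with all 3 PM arrays above all 3 Control arrays, and 0.68 (SE 0.15) without Control replicate 1. In a fit that drew its spread from all 4 groups, the second Gsto1 probe set passed (0.69, adjusted p = 0.0227). Intervals in the arrays labelled PM were -0.36 to 0.09 for Gstm1 and -0.39 to 0.17 for Gstm2. Those of OVA/PM against Control were -1.25 to -0.78 and -0.81 to -0.34. The intervals of the 2 comparisons overlapped for Gstm2 and not for Gstm1.

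Against the arrays labelled PM, OVA/PM lungs were lower in Gsta3 and Gstm1. In all, 6 of 14 member probe sets passed (2 of Gsta3 and 3 of Gstm1 lower, 1 of Gsto1 higher), while 12.9% of all 22428 probe sets tested did. Gsta3 differed by -1.09 (SE 0.19, limma adjusted p = 0.0153) and Gstm1 by -0.88 (SE 0.10, adjusted p = 0.00449), and these calls held with any array left out. Gstm2 did not pass (difference -0.46, SE 0.12, adjusted p = 0.0594). Gsto1 was 0.53 higher by the probe set that passed (SE 0.10, adjusted p = 0.0182) and 0.50 higher by its brightest probe set (SE 0.13, adjusted p = 0.0529). The call of the probe set that passed was lost without PM replicate 2, OVA/PM replicate 1 or OVA/PM replicate 3.

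Against the arrays labelled OVA, 0 of 14 member probe sets passed in OVA/PM lungs with limma and 1 with SAM. Of all 22379 probe sets tested, 0.13% passed with limma and 57 with SAM. An unadjusted p under 0.05 was found for 4, those of Gpx2, Gsta4 and the 2 of Gsto1. Gsto1 was 0.67 higher (95% confidence interval 0.37 to 0.97, adjusted p = 0.265), and no OVA/PM array overlapped an OVA array. Gpx2 differed by -0.45 (interval -0.81 to -0.09, adjusted p = 0.502) and Gsta4 by -0.33 (interval -0.61 to -0.04, adjusted p = 0.542).

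Set against each other, the single exposures differed in 0 of 14 member probe sets, while 5.2% of all 22404 probe sets tested passed. An unadjusted p under 0.05 was found for 4, 1 of Gpx1 and 3 of Gstm1. Gstm1 was 0.56 lower in the arrays labelled OVA than in arrays labelled PM (difference -0.56, SE 0.17, limma adjusted p = 0.0944), with no overlap. Gsto1 did not separate the single exposures (-0.17, 95% confidence interval -0.48 to 0.13).

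Whether the combined exposure differed from the sum of the single ones on the log2 scale was tested as an interaction in a fit of all 4 groups. It passed in 0 of 14 member probe sets, with 0 at an unadjusted p under 0.05, while 0.0264% of all 22688 probe sets tested passed. It was again 0 of 14 without Control replicate 1. For Gsto1 the interaction was -0.04 (95% confidence interval -0.45 to 0.36), and the differences of 0.54 and 0.71 under the single exposures stood beside 1.21 in OVA/PM. For Gstm1 it was -0.19 (interval -0.64 to 0.26). For Gsta3 it was 0.04 with an SE of 0.43. A departure as large as the difference in the arrays labelled PM, -0.49, could therefore not be resolved with 3 arrays a group.

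Ordered by level, the groups ran OVA/PM, OVA, PM and Control from lowest to highest for Gsta3, Gstm1, Gstm2, Gpx3 and Gstt1. Gsto1, at its brightest probe set, ran Control, OVA, PM and OVA/PM from lowest to highest. Between neighbours in these orders, the call of Gsto1 between OVA and Control was the only 1 that passed.

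Markers of several cell types also differed between the groups, not all in the pattern of the lower transferases. Of all probe sets tested, 21.7% passed in OVA/PM against Control. The endothelial list (Pecam1, Cdh5, Cldn5, Kdr and Tek) had 4 of 5 genes lower in OVA/PM than in Control lungs. Relative to the Control mean, its mean log2 level lay at -0.77 to -0.56 in OVA/PM lungs, -0.74 to -0.38 in arrays labelled OVA, -0.05 to -0.04 in arrays labelled PM and -0.06 to 0.09 in Control lungs. As for Gstm1, the OVA/PM and OVA arrays lay below all PM and Control arrays. Every listed gene was above 4.93 in all arrays. Of the 5, 3 passed without Control replicate 1. Alveolar type 1 markers split the groups in the same way, with 4 of 5 genes lower in OVA/PM than in Control lungs (2 of 5 without Control replicate 1) and list means of -0.44 to -0.34 in OVA/PM, -0.45 to -0.29 in OVA, -0.16 to -0.07 in PM and -0.04 to 0.06 in Control, relative to the Control mean. Striated muscle markers had 4 of 7 genes lower in OVA/PM (1 of 7 without Control replicate 1), with a median of -1.33, and ciliated cell markers had 4 of 7 higher and 1 lower, the same counts as without that array. In the arrays labelled OVA, 0 of 7 striated muscle genes passed against Control (median -0.19), and 5 of 7 ciliated genes were higher, beside 19.2% of all probe sets tested. Tek, an endothelial receptor kinase, was also among the 3 closest of 11413 genes to Gstm1 by the root mean square difference of centred log2 values over the 12 arrays, at 0.12, with Dock6 at 0.09 and Clec14a at 0.10. The closest genes to Gstm2 were Cd36, Sh3bp4 and the club cell cytochrome Cyp2f2, each at about 0.08. Of 6 club cell genes, Cyp2f2 and Cbr2 were lower in OVA/PM than in Control lungs and Scgb3a1 was higher by 1.26, and the list median was -0.22. The list mean, which holds Scgb3a1, was 14.62 to 14.70 in OVA/PM lungs and 14.68 to 14.70 in Control lungs. With that array left out, 1 was lower and 1 higher. The part of any of these cell types in the lower transferases was not tested.

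The macrophage list had 4 of 6 genes higher in OVA/PM than in Control lungs, and its mean level relative to the Control mean was 1.43 to 1.86 in OVA/PM lungs, 1.37 to 1.94 in arrays labelled OVA, -0.17 to 0.33 in arrays labelled PM and -0.13 to 0.19 in Control lungs. Goblet cell genes were higher in OVA/PM lungs (6 of 6, and both counts held without Control replicate 1), with list means of 10.51 to 10.77 in OVA/PM, 6.99 to 7.82 in OVA, 8.26 to 9.20 in PM and 4.32 to 4.67 in Control. Gsto1 was above Control in the arrays labelled PM, where the macrophage list overlapped its Control range and the goblet list did not. Between the arrays labelled OVA and those labelled PM, Gsto1 overlapped, while neither list mean did. The goblet list mean holds Clca1, which read 8.10 to 8.69 in OVA and 13.95 to 14.88 in PM. Agr2 leaned the other way, at 7.94 to 9.48 in OVA and 7.18 to 8.15 in PM. Of 5 goblet genes tested between these groups, 1 passed, lower in OVA, beside 5.2% of all probe sets tested. The part of either cell type in the Gsto1 difference was not tested. Genes closest to Gsto1 in pattern were Zfp385b, Gm19990 and Sec11c (0.20 to 0.21), those closest to Gsta3 were Lims2, Tmtc1 and Sec14l4 (0.16 to 0.22), and those closest to Gpx3 were Mob2, Cfl2 and Btrc (0.05 to 0.07).

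**Figure D3:**
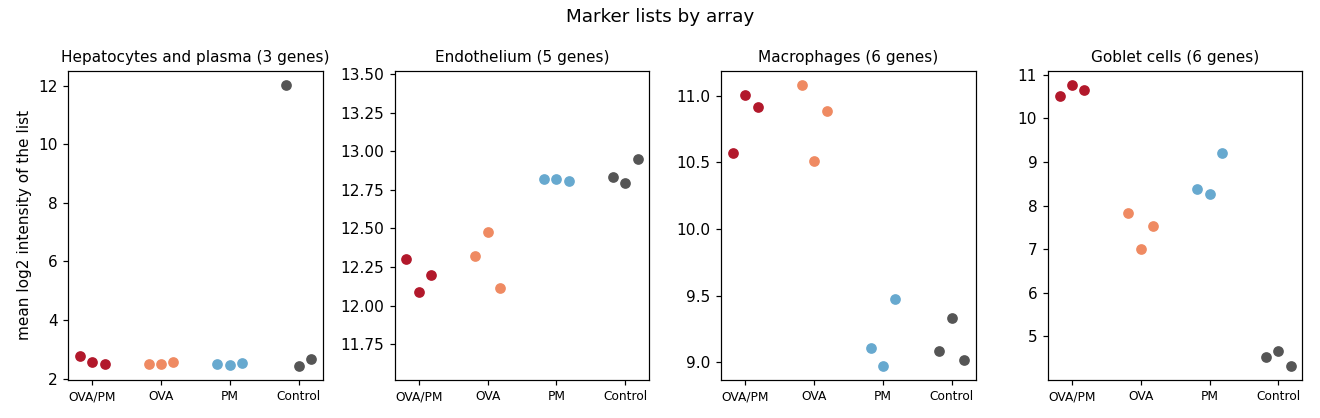
Mean log2 intensity of the genes of 4 marker lists in each array (points), with the groups OVA/PM, OVA, PM and Control from left to right; the vertical axes differ between panels. Control replicate 1 stood at 12.03 on the hepatocyte and plasma list, against 2.44 to 2.78 in the other 11 arrays, and the endothelial list was lower in OVA/PM and OVA than in PM and Control.

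The transcripts of liver in Control replicate 1 were set beside the members. At its brightest probe set, Gsta3 read 12.96 in that array and 12.88 in Control replicate 2, and Gstm1 read 13.31 and 13.32. Control replicate 3 had the lowest Gsta3 and Gsta4 of the group. The second Gsta3 probe set read 9.04 in Control replicate 1, against 8.79 and 8.00 in replicates 2 and 3. Gpx3 read 13.95, against 13.76 and 13.80. The OVA/PM calls of that Gsta3 probe set and of Gpx3 were lost without Control replicate 1, and also without most other arrays. Gpx2 read 9.98 in Control replicate 1, the highest Control value, and its OVA/PM difference was -0.07 without it. The part of liver RNA in these levels was not tested.

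Genes of the wider glutathione pathway differed in both directions in OVA/PM against Control lungs. In that comparison, 21.7% of all 22538 probe sets tested passed, and 2870 of 22602 without Control replicate 1. The list counts were not tested against that share. Among 13 other transferases tested, Mgst2 rose by 0.80 (SE 0.14, limma adjusted p = 0.0116), and the mitochondrial and peroxisomal Gstk1 and the tyrosine-catabolic Gstz1 fell by 0.62 and 0.65 (adjusted p = 0.00842 and 0.0335). The other 10 did not pass, and the median was -0.22. With Control replicate 1 left out, Mgst2 and Gstk1 passed, and Gstz1, at -0.70, did not (adjusted p = 0.0686). None of 3 other peroxidases passed, with Gpx4, which reduces phospholipid hydroperoxides, at -0.09, and none passed without Control replicate 1 either.

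Of 13 genes for the synthesis, recycling and supply of glutathione, 3 rose and 1 fell, beside 21.7% of all probe sets tested. The list median was 0.23. Slc7a11, the cystine importer that supplies cysteine for glutathione, gave the largest difference, 2.29 (SE 0.21, limma adjusted p = 0.00141). Ggct, which breaks down gamma-glutamyl peptides, rose by 1.14 (SE 0.19, adjusted p = 0.0111) and glutaredoxin (Glrx) by 0.59 (SE 0.11, adjusted p = 0.0136). Oplah, which returns 5-oxoproline to glutamate, fell by 0.64 (adjusted p = 0.0341). The catalytic subunit of the rate-limiting ligase, Gclc, was at 0.52 (adjusted p = 0.0756), its modifier subunit Gclm at 0.03, and glutathione reductase (Gsr) at 0.37 (adjusted p = 0.12). Without Control replicate 1, 4 rose, Chac2 in addition, and none fell.

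Of 15 NRF2 targets outside glutathione metabolism, 5 rose and 2 fell, beside 21.7% of all probe sets tested. The list median was 0.21. Hmox1, the heme oxygenase, rose by 1.40 (SE 0.25, limma adjusted p = 0.0129), Akr1b8 by 0.88 (adjusted p = 0.00666) and the sulfiredoxin Srxn1 by 0.75 (adjusted p = 0.00838). Txn1 and Pgd rose by 0.33 and 0.52. Ephx1, the microsomal epoxide hydrolase, fell by 1.01 (adjusted p = 0.00786) and Aox1 by 0.92 (adjusted p = 0.0121), while Nqo1 was at -0.62 (adjusted p = 0.0659). Without Control replicate 1, 3 rose and 2 fell, the calls of Txn1 and Pgd being lost. None of 7 genes for NRF2 and its regulators passed, Nfe2l2 being at 0.20 (SE 0.18), nor did any of 8 genes of selenoprotein synthesis, with or without Control replicate 1.

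**Figure D4:**
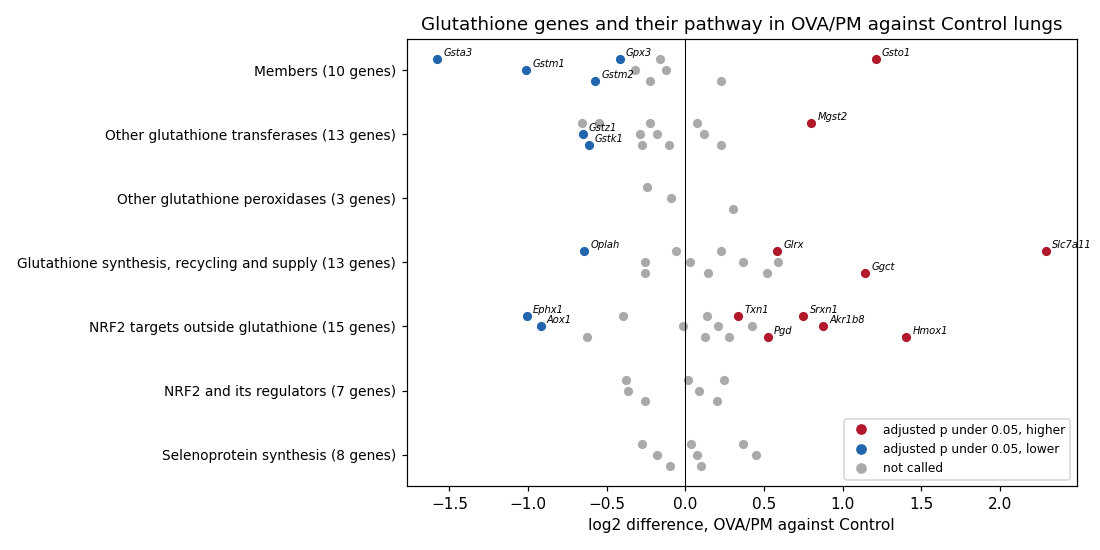
Log2 differences of OVA/PM from Control (horizontal axis) for the 10 members and 6 lists of pathway genes, 1 point a gene at its brightest probe set, with genes under an adjusted p of 0.05 coloured and named. Members were called mostly to the left of 0, whereas Slc7a11 at 2.29 and Hmox1 at 1.40 lay to the right.

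The same lists were read in the single exposures. In the arrays labelled OVA, Mgst2 was 0.70 higher and Gstk1 0.48 lower (difference -0.48), and Glrx was 0.74 higher than in Control lungs. Of the 15 NRF2 targets, 5 were higher, with Hmox1 at 1.47 (SE 0.33, limma adjusted p = 0.0337) and Akr1b8 at 0.98 (SE 0.23, adjusted p = 0.0377), and Aox1 was lower (difference -0.90). Of the 7 genes for NRF2 and its regulators, Nfe2l1 was lower there (difference -0.28, adjusted p = 0.0421), and the list median was -0.26. Without Control replicate 1, Mgst2 and Srxn1 were the 2 genes of the 6 lists that passed, while 1291 of all 22567 probe sets tested did. In the arrays labelled PM, 0 genes of the 6 lists passed against Control, with or without that array. Over all probe sets, 16 of 22246 passed with it and 6 of 22332 without it.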

How the data were processed

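Whole lung RNA was measured on an Affymetrix mouse expression array. The authors deposited log2 intensities made with GCRMA, which corrects background by probe composition, normalizes quantiles over the arrays and summarizes probes. MAS5 is also named in the submitters' processing notes, and versions are not given in the sources used here. Of 45101 probe sets, 34958 had 1 symbol, 932 several and 9211 none. Detection calls were not used here.

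Group pairs were fitted with limma 3.58.1 in R 4.3.3 (eBayes, Benjamini-Hochberg adjustment) and the interaction in a fit of 4 groups. With 3 arrays a group, the smallest exact permutation p is 0.1, and tests of single genes are those of limma. Control probe sets (64) were left out. P-values measure only the spread between these arrays, whose number limits the precision. The scripts were tested on simulated data.

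All 10 members were named at the probe set with the highest mean, with up to 4 called genes a pathway list and the 3 genes closest to each called member. Other pathway and marker genes named were chosen after their values were seen. The members and lists were chosen with earlier results of these data known. The settings varied were the filter (none, or 8.65, the 75th percentile), an added offset of 16 before logs, SAM over 20 relabelings (own code), quantile normalization again, blocking on replicate number, all 4 groups in 1 fit, other probe sets, and each array left out. List counts without Control replicate 1 were added after seeing the data.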

Additional observations from a re-analysis of the deposited data

How the results depend on the processing

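No member changed direction from a called value under any alternative. Of 14 member probe sets, 9 were called in OVA/PM against Control, and 7 to 8 with 1 array left out. Over all probe sets tested, 4899 of 22538 were called there, and 2188 to 4491 with 1 array left out. For OVA against Control, 5 were called, but 2 with no filter, 8 with a fit of all 4 groups, 10 with SAM and 0 to 6 with 1 array left out. For OVA/PM against PM, 6 were called, 11 with SAM and 3 to 6 with 1 array left out. For OVA against PM, 0 were called, 2 with a fit of all 4 groups, 4 with SAM and 0 to 3 with 1 array left out (3 without OVA replicate 2). For PM against Control, 1 was called with a fit of all 4 groups, and for OVA/PM against OVA, 1 with SAM, against 0 in each. Over all probe sets tested, these 2 settings gave 38 of 22246 and 57 of 22379. With the replicate number as a block, 0 were called in OVA against Control and 3 in OVA/PM against PM. The block rests on a shared number only: deviations from group means correlated over 0.1 in 3 of the 18 same-numbered array pairs, with a median of -0.06, and for 2 of 12 arrays the best match had the same number. Calls over all probe sets moved as well. OVA against Control gave 4326 of 22498, 2432 of 45037 with no filter, 5663 with a fit of all 4 groups and 11108 with SAM. It gave 89 with the block and 407 to 5284 with 1 array left out. OVA/PM against PM gave 2894 of 22428, 5510 with SAM, 1377 with the block and 1367 to 1870 with 1 array left out. OVA against PM gave 1165 of 22404, 3295 with a fit of all 4 groups and 6514 with SAM. With 1 array left out it gave 4 to 3587. The cause of these shifts was not tested.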
